A study of Mus musculus with 12 samples.

Results

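Trefoil factor 3 (Tff3) and 7 genes used as markers of the bile ducts, Krt7, Krt19, Krt8, Krt18, Epcam, Sox9 and Spp1, were followed in mouse liver through adult life. These 8 genes were selected by name out of the 53465 gene rows of a count table, and Tff3 was chosen for its lower level in aged than in young livers, which earlier results of the same data had shown. The table held 12 liver RNA-seq libraries from C57BL/6N mice, 1 animal each and with no treatment named: 4 young (3 months), 4 middle-aged (12 months) and 4 aged (18 months). The design note speaks of 3 replicates per age, whereas the table and the labels hold 4. Between 8124312 and 10527159 reads were counted on genes in each library.

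Libraries were not alike in every other respect. Young replicate 2 had 19.2% of its gene counts on mitochondrial genes, against 5.48 to 10.7% in the other 11 libraries, and 10.6% of all counts on synthetic spike-in RNA, against 1.59 to 6.23%. The composition of the 31 best-covered spike-ins separated replicates 1 and 2 of every age from replicates 3 and 4 of every age (lowest correlation within these sets 0.997, highest between them 0.925). Each set therefore holds 2 livers of each age, and values within the sets are given for Tff3 and the 4 keratins.

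Bile ducts are lined by cholangiocytes, epithelial cells that modify and carry the bile made by hepatocytes. Cholangiocytes carry keratins 7 and 19 in addition to keratins 8 and 18, the filament pair that hepatocytes also make, together with the adhesion molecule EpCAM, the transcription factor SOX9 and the secreted phosphoprotein osteopontin, the product of Spp1. Trefoil factors are small secreted proteins of mucus-covered epithelia, held in a clover-leaf fold by cysteine bridges, and Tff3 is the member best known from intestinal goblet cells. In the liver it has been linked to biliary epithelium and to hepatocytes. Mesothelial cells, the flat covering of the liver surface, are epithelial-like as well and also make keratins 7, 8, 18 and 19.

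The coding sequence of Tff3 is shown because the gene is short, so that few reads stand behind its low values, and because trefoil genes resemble each other. It lies on chromosome 17 between 31125486 and 31129576 on the minus strand of GRCm38 (GENCODE M21), in 3 coding exons of a gene that spans 31125306 to 31129646. The transcript has 493 bases, of which 246, stop codon included, are coding. Capitals mark the 7 cysteine codons among its 81 codons.
Tff3: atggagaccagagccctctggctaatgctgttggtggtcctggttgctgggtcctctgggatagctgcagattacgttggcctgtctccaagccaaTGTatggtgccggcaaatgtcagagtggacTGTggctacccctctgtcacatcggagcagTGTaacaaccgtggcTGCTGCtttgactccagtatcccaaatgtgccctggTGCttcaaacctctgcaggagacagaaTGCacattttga

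The longest identical run between the Tff3 transcript and those of its paralogues was 12 bases for Tff1 and 14 bases for Tff2, and no transcript of another gene shared a run of 50 bases with it. Reads of Tff3 could therefore not be split with a paralogue by sequence identity of that length. Tff1 and Tff2, secreted by stomach mucosa, were close to absent, with at most 1 count of Tff1 in any library and at most 8 of Tff2. Among the other members, Krt19, Epcam and Sox9 shared no such run with another gene, Krt8 shared it with Krt8-ps and Gm36026, and Krt18 with Gm5200 and Gm17847. Krt7, the longest transcript set of the group, shared runs with 162 genes, and Spp1 shared 1 with Gm42793, so that reads in those stretches are uncertain.

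The bases before the start of 3 keratin genes are shown because these genes split into 2 pairs in the liver-to-liver pattern described below, Krt7 with Krt19 and Krt8 with Krt18. They are the 100 bases upstream of the RefSeq start on GRCm38.p6, at chr15:101412303-101412402 (plus strand) for Krt7, chr15:102004343-102004442 (minus strand) for Krt8 and chr15:102028116-102028215 (plus strand) for Krt18. Capitals mark the GC box, GGGCGG on either strand.
Krt7: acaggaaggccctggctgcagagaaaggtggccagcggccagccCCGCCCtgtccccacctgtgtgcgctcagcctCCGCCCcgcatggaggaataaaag
Krt8: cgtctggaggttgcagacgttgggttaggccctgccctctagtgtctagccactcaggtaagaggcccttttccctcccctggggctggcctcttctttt
Krt18: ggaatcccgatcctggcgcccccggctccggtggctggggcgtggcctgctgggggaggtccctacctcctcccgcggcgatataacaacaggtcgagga

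Krt7 held 2 GC boxes in this window, on the strand opposite to the written motif, and Krt8 and Krt18 held none. Of 32851 RefSeq promoter windows of the same length, 24.7% held at least 1 GC box. The TATA motif, TATAAA on either strand, was in none of the 3 windows and in 5.56% of all windows. The table of starts matched 5 of the 8 members and had no entry for Tff3, Krt19 or Sox9.

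Scaled to exon length and library total (RPKM, reads per kilobase of exon in a fixed number of gene counts), the 8 genes lay far apart. Krt18 was highest with 172 ± 36.5 RPKM (SD, n = 12 livers), followed by Krt8 with 145 ± 16.5. Krt18 lay above Krt8 in 11 of 12 livers. Tff3 came next in the mean with 11.2 ± 18.6 RPKM, but its values ran from 0.606 to 64.1 and it exceeded the next gene, Spp1, in 5 of 12 livers only. Spp1 (5.80 ± 2.08 RPKM) and Krt19 (4.70 ± 3.08) were not separable, with Spp1 higher in 7 of 12 livers, nor were Sox9 (1.40 ± 0.537) and Krt7 (1.08 ± 0.782), with Sox9 higher in 7. The exon length of Krt7, 7049 bases, sums over all annotated isoforms, which lowers its RPKM. Epcam was lowest in every liver, at 0.136 ± 0.126 RPKM.

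The cell-type label was checked against 16 further bile duct markers. Only 5 of them averaged 10 or more size-normalised counts, among them Bicc1 (64.1), Cd24a (50.5), Pkhd1 (48.9) and Wfdc2 (16.0). Markers that are largely confined to duct epithelium among liver cells were near 0. Cldn4 and Cldn7, tight junction proteins, had at most 3 counts in any library, and Sctr, the secretin receptor, at most 1. Epcam itself had 0 to 8 counts. Hepatocyte markers, by contrast, were abundant, led by Alb (serum albumin, 594862 normalised counts on average), Apoa1 (94165) and Ahsg (62282). Biliary RNA was thus present only at a low level, and in whole tissue fewer cells of a type and less RNA per cell cannot be told apart.

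Tff3 (ENSMUSG00000024029) had 138, 272, 55 and 34 raw counts in young replicates 1 to 4, which gave size-normalised counts of 146, 346, 65.2 and 33.2. Middle-aged livers had 4.96, 7.18, 14.1 and 27.1 normalised counts, from 5 to 27 raw counts. Aged livers had 15.1, 13.5, 2.62 and 4.47, from 3 to 15 raw counts. Every young liver was thus above every middle-aged and every aged liver, while the middle-aged and aged groups overlapped. Tff3 had been chosen for its lower aged level, and the share of all genes that separate in this way is not given here.

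Tff3 varied widely within each age, with a young mean of 148 ± 141, a middle-aged mean of 13.3 ± 9.95 and an aged mean of 8.91 ± 6.27 (SD, n = 4 each). The fitted log2 difference was -3.47 (SE 0.82) between middle-aged and young livers, -4.06 (SE 0.83) between aged and young livers and -0.59 (SE 0.85) between aged and middle-aged livers. These differences are a description, without a test, since the gene had been picked for them. The comparisons share their young livers. Without young replicate 2, the highest liver and the one with the large mitochondrial share, the first 2 differences were -2.62 and -3.21. With libraries scaled to the spike-ins in place of gene counts they were -1.70 and -2.63, but this scaling also raised the median of all genes tested, by 1.47 and 1.15 on the log2 scale.

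Within ages, Tff3 separated by replicate number. Young replicates 1 and 2 lay above replicates 3 and 4, middle-aged replicates 1 and 2 lay below replicates 3 and 4, and in aged livers replicates 1 and 2 were above again. Taken within replicates 1 and 2 alone, the log2 difference between aged and young livers was -4.10, and within replicates 3 and 4 it was -3.79. For middle-aged against young livers the values were -5.33 and -1.27. Aged against middle-aged livers gave 1.23 in one set and -2.53 in the other, so that the direction of the later step differed between the sets.

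**Figure D1:**
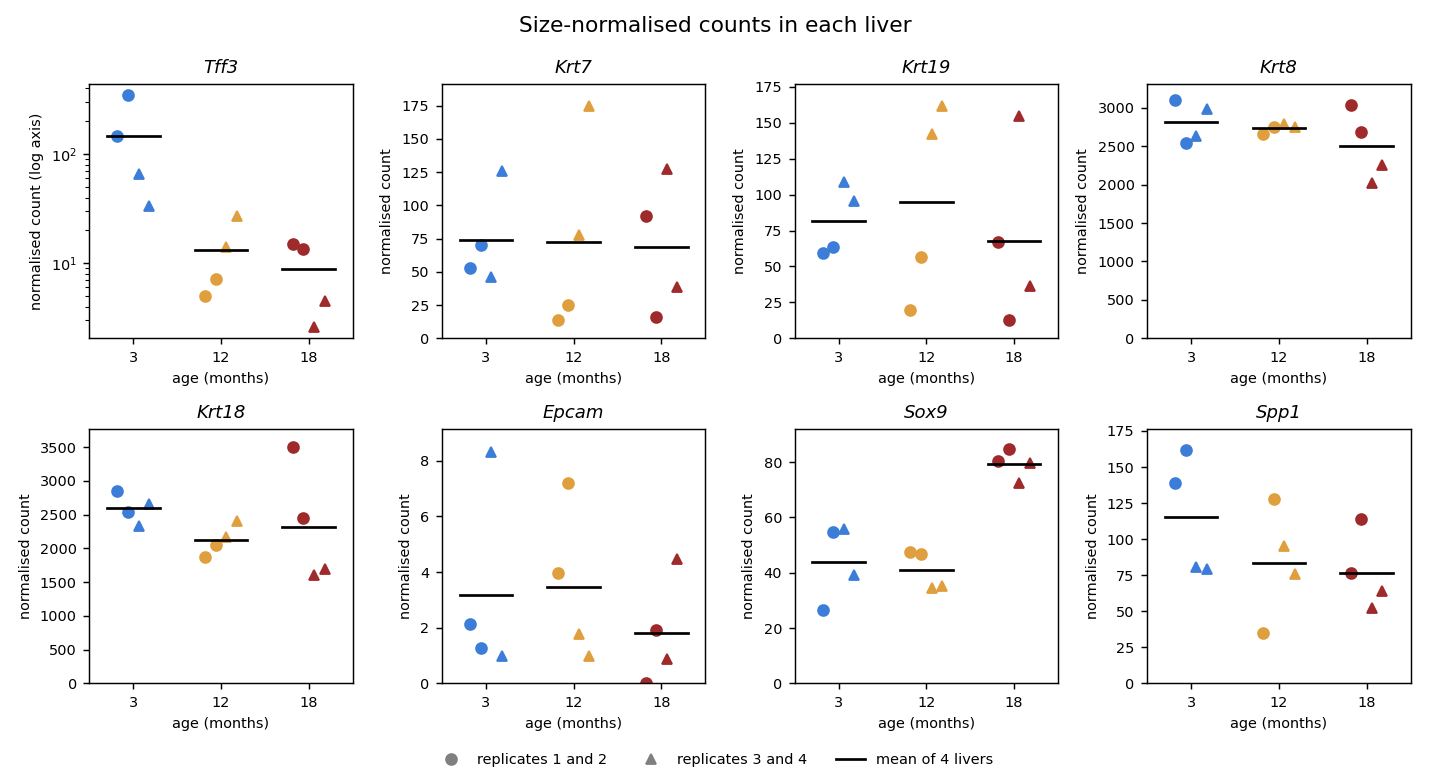
Size-normalised read counts (y axis; log axis for Tff3 only) of the 8 genes in each of 12 livers at 3, 12 and 18 months (x axis); circles are replicates 1 and 2, triangles replicates 3 and 4, and bars the means of 4 livers. All 4 young livers are above the others for Tff3 (33.2 to 346), and all 4 aged livers are above the others for Sox9 (72.5 to 84.8).

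Of the 7 bile duct markers, only Sox9 changed with age in the comparisons made over all 12 livers, and it rose. Over all genes, DESeq2 called 3.58% of the genes tested between aged and young livers, 6.41% between middle-aged and young livers, 1.14% between aged and middle-aged livers and 6.96% across the 3 ages (adjusted p under 0.05). Of the 6 markers that received an adjusted p, 1 was called between aged and young livers, 0 between middle-aged and young livers, 1 between aged and middle-aged livers and 1 across the 3 ages. The calls were of a single gene and say nothing of the markers as a group. In the comparison without a called marker, none of the 7 had an unadjusted p under 0.05 in DESeq2, and edgeR called none. Epcam was too low to receive an adjusted p in any comparison of ages.

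Sox9 (ENSMUSG00000000567, chromosome 11, 112782224 to 112787760, plus strand) encodes a transcription factor of duct and progenitor cells. Its normalised counts were 26.5, 54.8, 55.7 and 39.1 in young livers, 47.7, 46.7, 34.4 and 35.1 in middle-aged livers and 80.3, 84.8, 72.5 and 79.6 in aged livers. All aged livers were above all others, and the young and middle-aged groups overlapped. The share of all genes that separate in this way is not given here, so the separation is a description only.

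Sox9 averaged 44.0 ± 13.9 at 3 months, 41.0 ± 7.18 at 12 months and 79.3 ± 5.06 at 18 months (SD, n = 4 each). Aged livers had 1.82 times the young level (log2 difference 0.86, SE 0.24, DESeq2 adjusted p = 0.0169) and 1.94 times the middle-aged level (log2 difference 0.95, SE 0.24, DESeq2 adjusted p = 0.0117). Across the 3 ages the DESeq2 adjusted p was 0.0018. Between middle-aged and young livers the log2 difference was -0.09 (95% interval -0.59 to 0.40, DESeq2 adjusted p = 0.882).

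The call of Sox9 between pairs of ages was not firm. Between aged and young livers it was kept in 12 of 22 alternative settings (adjusted p from 0.00918 to 0.649), and it was lost, for instance, in edgeR with its expression filter and without any of aged replicates 2, 3 and 4 or young replicates 1 and 4, whereas the log2 difference stayed between 0.68 and 1.04. Between aged and middle-aged livers it was kept in 12 of 22 settings, lost in 8 and without an adjusted p in 2 (0.81 to 1.14 on the log2 scale). Among these losses were the fits without middle-aged replicates 3 and 4 and without aged replicates 2 and 4. Across the 3 ages it was kept in 19 of 21 settings, and the 2 losses were the fits on 6 livers of 1 replicate set.

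**Figure D2:**
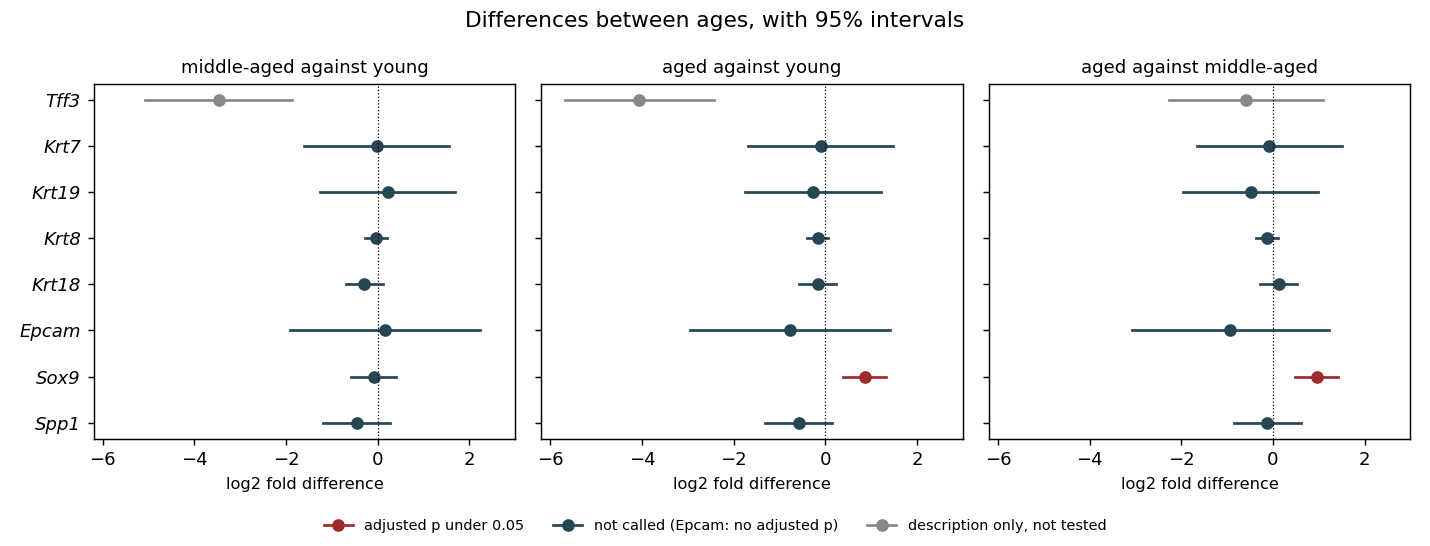
Log2 fold differences (x axis) of the 8 genes (y axis) for 3 pairs of ages, with points for DESeq2 estimates and lines for 95% intervals. Red marks an adjusted p under 0.05, which only Sox9 reached; grey marks Tff3, which was not tested.

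Krt7 (ENSMUSG00000023039, chromosome 15, 101411043 to 101430313, plus strand) varied more between livers of 1 age than between ages. Its normalised counts were 53.1, 70.0, 46.2 and 126 in young livers, 13.9, 25.1, 77.7 and 174 in middle-aged livers and 92.3, 16.4, 128 and 38.4 in aged livers. The groups overlapped fully. The log2 difference was -0.10 between aged and young livers (95% interval -1.69 to 1.48, DESeq2 adjusted p = 0.975), an interval wide enough to hold a change of more than 2-fold either way. Between middle-aged and young livers the log2 difference was -1.65 in replicates 1 and 2 and 0.54 in replicates 3 and 4 (DESeq2 adjusted p = 0.293 and 0.886), and between aged and middle-aged livers it was 1.47 and -0.59, none of them called.

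Krt19 (ENSMUSG00000020911, chromosome 11, 100140810 to 100148665, minus strand) had 59.4, 63.7, 109 and 95.7 in young livers, 19.9, 56.6, 142 and 161 in middle-aged livers and 67.2, 12.5, 155 and 36.7 in aged livers. Its groups overlapped as well. The log2 difference between aged and young livers was -0.27 (95% interval -1.75 to 1.21, DESeq2 adjusted p = 0.919). Between middle-aged and young livers it was -0.68 in replicates 1 and 2 and 0.56 in replicates 3 and 4, neither of them called.

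Krt8 (ENSMUSG00000049382, chromosome 15, 101996698 to 102004482, minus strand) and Krt18 (ENSMUSG00000023043, chromosome 15, 102028180 to 102032027, plus strand) are neighbours that encode the partner filaments of simple epithelia. Young livers had 2538 to 3104 normalised counts of Krt8, middle-aged livers 2656 to 2786 and aged livers 2025 to 3040. For Krt18 the ranges were 2334 to 2852, 1876 to 2408 and 1602 to 3498. Groups overlapped between aged and young livers in both genes.

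Between aged and young livers the log2 difference was -0.17 for Krt8 (95% interval -0.41 to 0.06, DESeq2 adjusted p = 0.536) and -0.17 for Krt18 (95% interval -0.57 to 0.23, DESeq2 adjusted p = 0.765). Estimates within the 2 replicate sets differed, and the difference between the sets was not tested. Within replicates 3 and 4 both genes were lower in aged than in young livers, with log2 differences of -0.60 for Krt18 (DESeq2 adjusted p = 0.000222) and -0.40 for Krt8 (DESeq2 adjusted p = 0.036). With 2 livers per age, 482 of 11411 genes tested were called there. Within replicates 1 and 2 the differences were 0.14 for Krt18 and 0.024 for Krt8, and neither was called, where 137 of 11066 genes tested were. Krt18 was also lower in aged than in middle-aged livers within replicates 3 and 4 (log2 difference -0.46, DESeq2 adjusted p = 0.0181), where Sox9 was not called, and had a log2 difference of 0.60 within replicates 1 and 2 (DESeq2 adjusted p = 0.372). In this comparison replicates 3 and 4 called 307 of 12421 genes tested, and replicates 1 and 2 called 34 of 11066. Without aged replicate 1, the liver with the highest Krt18, Krt18 was called between aged and young livers over the remaining 11 libraries at -0.44 (DESeq2 adjusted p = 0.0316). That fit called 1291 of 12350 genes tested.

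Epcam (ENSMUSG00000045394, chromosome 17, 87635979 to 87651129, plus strand) encodes an adhesion molecule of duct epithelium. Young livers had 0.976 to 8.29 normalised counts, middle-aged livers 1.002 to 7.18 and aged livers 0 to 4.47. A floor of 3 counts corresponds to 0.285 to 0.369 CPM (counts scaled to library total) in these libraries, so a change of Epcam with age was not detectable at this depth.

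Spp1 (ENSMUSG00000029304, chromosome 5, 104435118 to 104441050, plus strand) had 139, 162, 80.6 and 79.1 normalised counts in young livers, 34.8, 127, 95.4 and 76.2 in middle-aged livers and 76.3, 114, 52.4 and 64.4 in aged livers. The means were 115 ± 41.8, 83.4 ± 38.8 and 76.7 ± 26.5 (SD, n = 4 each), but the groups overlapped and no comparison was called. Between aged and young livers the log2 difference was -0.59 (95% interval -1.31 to 0.14, DESeq2 adjusted p = 0.473).

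Other genes of the pathways around Sox9 were read from a list of 11 Notch and YAP genes, the signals that shape duct cells in development and injury. Of the 10 with an adjusted p between aged and young livers, 2 rose and 0 fell, against 3.58% of all genes called in either direction, with a median log2 difference of 0.32, against a median near 0 over all genes tested. Both were Notch receptors. Notch1 had 52.0, 21.7, 64.0 and 85.9 normalised counts in young livers, 85.4, 158, 103 and 132 in middle-aged livers and 83.3, 163, 128 and 118 in aged livers. Notch2 had 162 to 247 at 3 months, 327 to 438 at 12 months and 261 to 435 at 18 months.

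Notch1 was 2.19 times higher in aged than in young livers (log2 difference 1.13, SE 0.34, DESeq2 adjusted p = 0.0287) and 2.13 times higher in middle-aged than in young livers (log2 difference 1.09, SE 0.34, DESeq2 adjusted p = 0.0267). Notch2 was 1.52 times higher (log2 difference 0.61, SE 0.19, DESeq2 adjusted p = 0.0381) and 1.71 times higher (log2 difference 0.77, SE 0.19, DESeq2 adjusted p = 0.00235). Unlike Sox9, both were already above the young level at 12 months, and neither was called between aged and middle-aged livers. After subtracting the mean of each age, log2 values of Sox9 had r = -0.24 with Notch1 and -0.48 with Notch2 over the 12 livers. Over the 9 listed genes averaging 10 or more counts the median r with Sox9 was -0.24, with 3 positive. Over all such genes it was -0.01. A common regulation of Sox9 and these genes was not tested. Over 22 alternative settings the call between aged and young livers was kept in 13 for Notch1 and in 9 for Notch2, and that between middle-aged and young livers in 14 and 21. Single libraries decided part of these calls. Notch1 was not called between aged and young livers without any of aged replicates 2, 3 and 4 or young replicates 1 and 2. Notch2 was not called there without aged replicates 2 or 3, middle-aged replicates 2 or 3 or young replicates 2, 3 or 4. Of the rest of the list (Jag1, Hes1, Hey1, Yap1, Wwtr1, Ctgf, Cyr61, Ankrd1 and Amotl2) no gene was called in any pair of ages. An adjusted p was given to 10, 9 and 7 of the 11 listed genes (aged against young, middle-aged against young, aged against middle-aged).

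Krt7 and Krt19 were high in the same livers, whatever the age. After subtracting the mean of each age, log2 values of Krt7 and Krt19 correlated with r = 0.90 and rho = 0.83 over the 12 livers (exact permutation within ages, two-sided p = 0.0033 and 0.0114, adjusted over 21 pairs of markers 0.0342 and 0.119). Without the livers farthest from the median of Krt7, r was 0.88. Krt8 and Krt18 formed the other pair, with r = 0.91 and rho = 0.80 (exact permutation p = 0.0018 and 0.0208, adjusted 0.0342 and 0.146) and r = 0.77 without the 2 farthest livers. None of the other 19 pairs of markers had an adjusted p under 0.05. Krt7 and Krt19 had r between -0.23 and 0.18 with Krt8 and Krt18, so the 2 pairs of keratins differed in which livers were high.

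Krt7 and Krt19 were measured alongside mesothelial markers, a comparison chosen after the values were seen. All 6 listed genes, Msln (mesothelin), Upk3b and Upk1b (uroplakins), Wt1 (a mesothelial transcription factor), Lrrn4 and Muc16, were detected in every age, from 36.7 normalised counts on average for Wt1 to 311 for Upk3b. Within ages, Krt7 had r = 0.98 with Msln and a median r of 0.93 over the 6 genes (lowest 0.88). Krt19 had r = 0.99 with Wt1 and a median of 0.95 (lowest 0.89). For all 12 of these relations the exact permutation p within ages was 0.0052 or lower, and 0.013 or lower after adjustment over 30 relations. Spearman's rho was at least 0.83 (exact permutation p of 0.0158 or lower, adjusted 0.0396 or lower), and without the 2 livers farthest from the median of each keratin r was at least 0.80.

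Over the 11803 genes whose mean reached 10 normalised counts, the median r was -0.05 for Krt7 and -0.04 for Krt19. Among 8887 genes whose mean reached 50, Msln had the third highest r with Krt7, after Fmod and Sulf1, and Upk3b the third highest with Krt19, after Nbl1 and Phldb1. Sox9 and Spp1 did not share this pattern, with median r of -0.31 and -0.07 over the mesothelial list, and Epcam had -0.45 at its few counts. The values for Sox9 and Spp1 depended on the livers farthest from their medians. Without young replicates 1 and 3, r of Sox9 with each mesothelial gene lay between -0.77 and -0.75. Without middle-aged replicates 1 and 2, r of Spp1 with each of them lay between -0.78 and -0.62. This inverse relation in the remaining livers was not tested. Of the further bile duct markers, Bicc1 was high in the same livers as Krt7 and Krt19 (r = 0.95 and 0.94), whereas Pkhd1 (-0.03 and 0.08) and Wfdc2 (-0.23 and -0.0016) were not. The 7 genes named as bile duct markers therefore did not behave as 1 group, and the level of Krt7 and Krt19 went with lists of other cell types. The mesothelial list had the highest median r, but the 9 stellate and fibroblast markers also had medians of 0.63 with Krt7 (8 positive) and 0.68 with Krt19 (9 positive), and the 3 lymphocyte markers averaging 10 or more counts had 0.51 and 0.71. Among single genes of these lists, Ptprc, the leukocyte antigen CD45, had r = 0.92 with Krt7 and 0.82 with Krt19, and Lum, the matrix proteoglycan lumican, had 0.88 and 0.68. Of all genes averaging 10 or more counts, 45.0% were positive with Krt7 and 44.8% with Krt19.

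**Figure D3:**
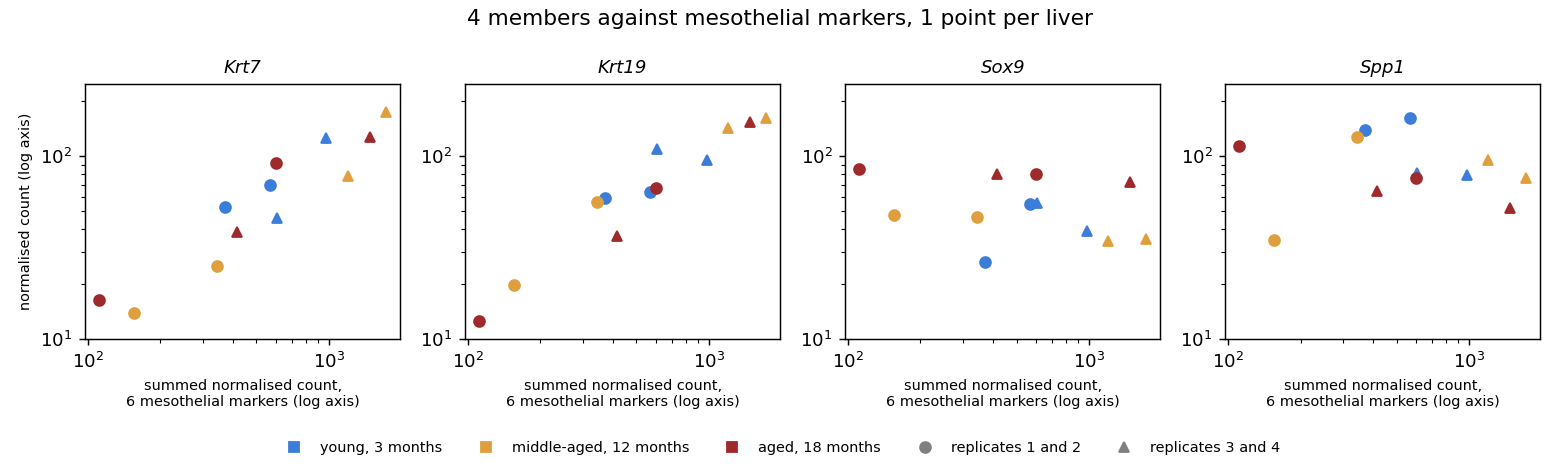
Normalised counts of Krt7, Krt19, Sox9 and Spp1 (y axes, log) against the summed normalised counts of 6 mesothelial markers (x axes, log), 1 point per liver, coloured by age. Krt7 and Krt19 rise with the mesothelial sum from 112 to 1720, and Sox9 and Spp1 do not.

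The summed level of the 6 mesothelial markers was 370 to 975 in the young group, 155 to 1720 in the middle-aged group and 112 to 1479 in the aged group, so the ages overlapped. It was 112 to 601 in replicates 1 and 2 and 414 to 1720 in replicates 3 and 4. Krt19 was 46.6 ± 23.9 in replicates 1 and 2 and 117 ± 46.9 in replicates 3 and 4 (SD, n = 6 each), a log2 difference of 1.33 (SE 0.41) that missed the threshold (DESeq2 adjusted p = 0.118). Krt7 differed by 1.23 (SE 0.58, DESeq2 adjusted p = 0.5).

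In this comparison of replicate sets DESeq2 called 0 of the 8 members, with 2 at an unadjusted p under 0.05, and 0.361% of all genes tested. edgeR called 0 members with its expression filter and 4 without a filter (Krt7, Krt19, Spp1 and Tff3), where it called 1 of 12099 and 652 of 28449 genes. Leaving out aged replicate 1 added Krt7 and Krt19, leaving out aged replicate 4 added Krt19, and leaving out middle-aged replicate 1 added Spp1. These 3 fits called 142 of 14562, 152 of 13455 and 12 of 16766 genes tested. Among the mesothelial markers Lrrn4 was called, and all 6 were higher in replicates 3 and 4 (median log2 difference 1.59, against a median near 0 over all genes tested). Fibroblast markers were higher there too, with Dcn, Col1a2 and Col3a1 called among 9 genes. The summed level of that list was 1567 to 2284 in replicates 1 and 2 and 2691 to 4279 in replicates 3 and 4. Their part in the levels of Krt7 and Krt19 was not tested.

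The question put to Tff3 was whether it follows bile duct genes or hepatocyte genes from liver to liver. After the mean of each age was subtracted, it followed neither group as a whole. Its relation to the 7 markers was tested by permuting Tff3 values within ages over all 13824 arrangements. No relation passed after adjustment over the 7.

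Spp1 had r = 0.65 and rho = 0.69 with Tff3 (exact permutation p = 0.0366 and 0.0285, adjusted 0.128 and 0.134), and r = 0.57 without young replicates 2 and 4, the livers farthest from the median of Tff3. Krt18 had r = 0.59 and rho = 0.64 (exact permutation p = 0.0322 and 0.0382, adjusted 0.128 and 0.134), and r = 0.84 without the same livers. For Krt8 the values were r = 0.33 and rho = 0.25 (exact permutation p = 0.334 and 0.5), and for Epcam r = -0.41 and rho = -0.41 (exact permutation p = 0.239 and 0.237). Krt7 (r = 0.13), Krt19 (-0.04) and Sox9 (-0.06) had an exact permutation p of at least 0.672. Without young replicates 2 and 4, r was 0.78 for Krt8, -0.64 for Epcam, 0.32 for Krt7, 0.05 for Krt19 and -0.45 for Sox9. With 12 livers, none of the 7 relations was distinguishable from none after adjustment.

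Read against whole lists, the median r of Tff3 was 0.08 over the 19 hepatocyte markers, of which 12 were positive, and -0.14 over the 5 of 16 further bile duct markers with a mean of at least 10 counts, of which 1 was positive. Over all 11803 such genes the median was 0.01. Single hepatocyte genes spread widely, from -0.75 for G6pc (glucose-6-phosphatase) and -0.64 for Alb to 0.61 for Ahsg and 0.84 for Fgb (fibrinogen beta chain). The hepatocyte median turned with the scaling, to -0.36 on the CPM scale, under which the median of all genes moved to -0.22.

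Other cell types gave medians farther from that of all genes. The 7 macrophage markers with a mean of at least 10 counts were all positive with Tff3 (median 0.42), as were all 6 endothelial markers (0.36), and the 9 stellate and fibroblast markers were all negative (-0.28), where 50.8% of all genes were positive. These values rested largely on young replicate 2, the liver with the most Tff3, which also had the highest summed levels of macrophage markers (4677, against 2340 to 3882 in the other livers) and endothelial markers (1952, against 1185 to 1427). Without it, 5 of 7 macrophage markers were positive (median 0.13), 4 of 6 endothelial markers (0.036) and 2 of 9 stellate and fibroblast markers (-0.15). Without young replicate 4 the endothelial median was 0.23, and without middle-aged replicate 1 the stellate and fibroblast median was -0.52. Mesothelial markers lay at -0.01. Markers of intestinal secretory cells were near absent, with at most 15 counts of Fcgbp, 7 of Spink4 and 2 of Muc2 in a library and 0 of Retnlb, while the summed level of the 8 genes reached 10.7 at 3 months, 19.8 at 12 months and 6.12 at 18 months.

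**Figure D4:**
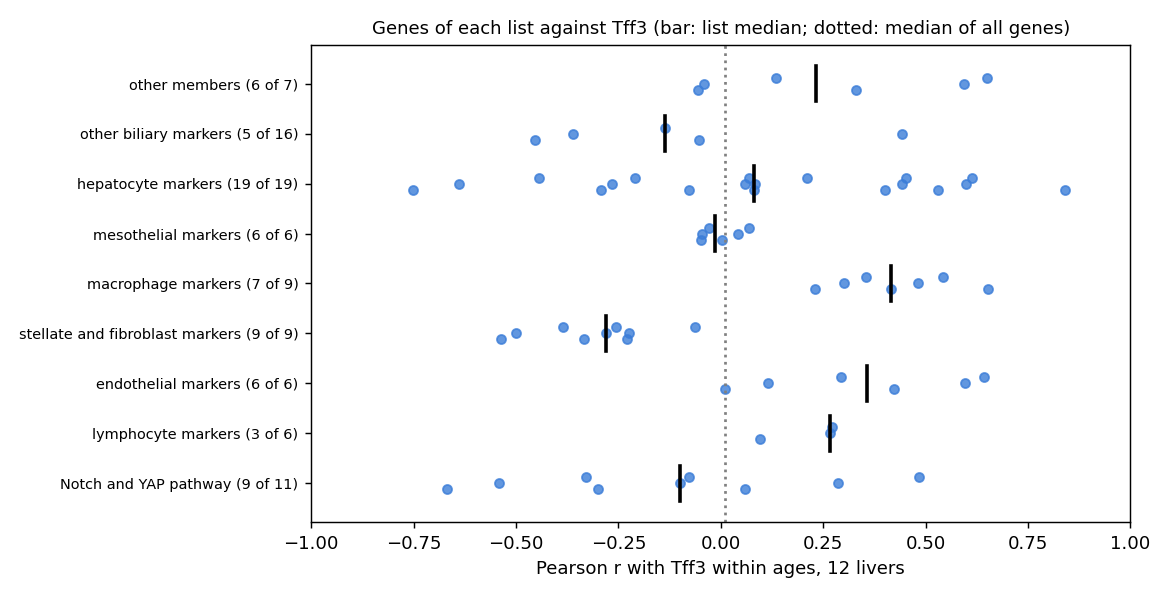
Pearson r with Tff3 within ages (x axis, 12 livers) for each gene of 9 lists (y axis; in brackets the genes shown, with a mean of at least 10 counts, of those listed); bars are list medians and the dotted line the median of all genes, 0.01. Hepatocyte markers spread on both sides of 0 (median 0.08), and the 5 bile duct markers have a median of -0.14.

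The genes most like Tff3 within ages belonged to none of the lists. The lists hold only a small part of the genes ranked, so this does not show which cell type Tff3 follows. Values of r without young replicate 2 are not given for these genes. Among the 8887 genes averaging 50 or more normalised counts, the highest r was 0.92 for Csrnp1, followed by 0.91 for Gadd45g, 0.91 for Agfg2, 0.91 for Cdk2ap1 and 0.91 for Mum1. The lowest were -0.95 for Plin5, a lipid droplet protein, -0.94 for Sfpq and -0.93 for Fahd1. In all, 6 genes reached r of 0.9 with Tff3 and 10 reached -0.9. The counts at 0.9 were 54 for Krt7, 41 for Krt19, 15 for Krt18, 12 for Krt8, 2 each for Sox9 and Spp1 and 1 for Epcam, and those at -0.9 were 12 for Krt18, 4 for Sox9, 3 for Krt7 and 0 for the others. The best-ranked listed gene was Fgb in place 32, whereas Spp1 took place 351 and Cd24a place 1358. The livers share library depth and composition, and the share of mitochondrial counts had r = 0.62 with Tff3 within ages (exact permutation p = 0.0846). Its part in these values was not tested.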

How the data were processed

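The authors deposited 1 table of raw read counts per gene for 12 liver libraries, with 53465 genes and 92 spike-in rows. The submitters' processing notes name STAR 2.5.2b, SAMtools 1.9, featureCounts, R 3.6.3, edgeR 3.28.1 and DESeq2 1.26.0 and the builds mm10 and GRCm38. The labels describe RNA from 4 young and 4 old livers and a stranded kit, as does the RNA-seq section of the study's methods. For RNA-seq at 3 ages, which this table holds, the study's methods instead name a public atlas, taken as counts. The preparation of these libraries is therefore uncertain. Symbols, positions and exon lengths came from GENCODE M21, in which 53360 identifiers were found.

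Ages were compared in DESeq2 1.42.0 (R 4.3.3) over all 12 libraries (Wald tests and a likelihood ratio test, genes with at least 1 count, spike-ins left out, Benjamini-Hochberg adjusted p under 0.05). Values are counts divided by DESeq2 size factors. Correlations used log2 of these values plus 1, with age means subtracted (Python 3.11.15, scipy 1.17.1). Low counts limit precision: a floor of 3 counts was used.

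Alternatives were edgeR 4.0.16, other scalings, filters, covariates, subsets and leaving out each library. The fits were tested on simulated data. Members, lists and tests were chosen with earlier results of these data known, and the mesothelial relations, pairs of markers, library measures and filtered edgeR fit after seeing values. Genes outside the members are named by rule: Tff1 and Tff2, the 5 highest and 3 lowest r with Tff3, listed genes called between ages, and the 3 most abundant hepatocyte and other bile duct markers. Genes named beside these were chosen after their values were seen. Genes that fell under this rule but are not named are not reported here.

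P-values measure the spread between single animals. Same-numbered livers did not deviate together (correlations from -0.30 to 0.16), so no pairing was used.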

Additional observations from a re-analysis of the deposited data

Results flagged for a closer look

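Epcam in young replicate 3, at 8.29 normalised counts, lay apart from the other 3 young livers. It was the only such value among the 24 groups of 4 livers examined for the 8 genes, of which chance alone sets apart about 1 in 20, and it rests on 7 raw counts in the library with the most genes detected (22284).

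In 3 of 24 gene and age comparisons, both livers of each age moved one way in replicates 1 and 2 and the opposite way in replicates 3 and 4. For Tff3 between aged and middle-aged livers the log2 ratio of means was 1.23 in replicates 1 and 2 and -2.54 in replicates 3 and 4, a difference of 3.77. For Krt19 between middle-aged and young livers the ratios were -0.69 and 0.57, a difference of -1.26. For Krt18 between aged and middle-aged livers they were 0.60 and -0.47, a difference of 1.07. With 2 livers per age and set, these differences were not tested.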

How the results depend on the processing

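Counts of called markers were small and moved with the setting. Between aged and young livers (1 marker, Sox9) the count was 0 in edgeR after its expression filter (a setting added after the data were seen), in replicates 1 and 2 alone, in the fit of only these 2 ages and with a replicate block, and 2 (Krt18 and Krt8) in replicates 3 and 4 alone. Over all genes these settings called, in this order, 172 of 12099, 137 of 11066, 290 of 14134, 655 of 22955 and 482 of 11411 genes tested. Between middle-aged and young livers it went from 0 to 1 (Krt18) in the fit of only these ages, which called 1166 of 10417 genes tested. Between aged and middle-aged livers it went from 1 to 0 in filtered edgeR, in replicates 1 and 2 alone and with the replicate block, and stayed 1 in replicates 3 and 4 alone, where Krt18 was called in place of Sox9. These settings called 13 of 12099, 34 of 11066, 426 of 28449 and 307 of 12421 genes tested. Across the 3 ages it went from 1 to 0 in replicates 1 and 2 alone (270 of 13413 genes called) and to 2 in replicates 3 and 4 alone (637 of 12421). Between replicate sets unfiltered edgeR gave 4 where DESeq2 gave 0, with 652 of 28449 and 51 of 14108 genes called. Leaving out 1 library gave 0 to 2, 0 to 0, 0 to 1, 1 to 1 and 0 to 2 calls in these 5 comparisons.

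With the replicate block, Sox9 had log2 differences of 0.87 and 0.96 (DESeq2 adjusted p = 0.0893 and 0.0619) between aged livers and young or middle-aged livers. The log2 differences were thus close to those without the block, while the calls were lost. Over all genes, same-numbered livers did not deviate together, so the replicate numbers were not taken as pairs. That result is not about Sox9 itself, and the replicate numbers also follow the sets that differed in spike-in composition. Why the calls were lost with the block was not tested.

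For Tff3, spike-in scaling gave -2.63 between aged and young livers and -1.70 between middle-aged and young livers, and moved the median of all genes by 1.15 and 1.47. Replicates 1 and 2 alone gave -5.33 between middle-aged and young livers and 1.23 between aged and middle-aged livers, and replicates 3 and 4 alone -1.27 and -2.53. Leaving out 1 library gave -4.44 to -3.21, -4.07 to -2.62 and -0.96 to 0.013 in the 3 comparisons, the last value without middle-aged replicate 4. The median r of Tff3 with hepatocyte markers was 0.42 pooled over ages, -0.069 with age and replicate set subtracted, -0.36 on the CPM scale and -0.12 to 0.24 without 1 library; that with other bile duct markers was -0.31 to 0.015.

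Differences not called over all livers changed sign in part of the settings. In replicates 1 and 2 alone they were 0.024 for Krt8 and 0.14 for Krt18 (aged against young), -0.68 for Krt19 and 0.23 for Sox9 (middle-aged against young), and 1.47 for Krt7, 0.056 for Krt19, 0.083 for Krt8 and 0.23 for Spp1 (aged against middle-aged). In replicates 3 and 4 alone they were 0.54 for Krt7, -1.73 for Epcam and 0.10 for Spp1 (middle-aged against young), and -0.46 for Krt18 (now called, DESeq2 adjusted p = 0.0181) and 0.95 for Epcam (aged against middle-aged). With replicate set as a covariate Krt19 was -0.035 (middle-aged against young) and Krt7 0.28 (aged against middle-aged), and with the replicate block the latter was 0.27. Correlations with Tff3 turned for Krt19 (0.16 pooled over ages, 0.34 with age and set subtracted) and Krt8 (-0.13 on the CPM scale). Leaving out 1 library gave, between aged and young livers, Krt7 -0.59 to 0.28, Krt19 -1.08 to 0.072 and Epcam -1.74 to 0.33, between middle-aged and young livers, Krt7 -0.92 to 0.37, Krt19 -0.17 to 0.55, Krt8 -0.087 to 0.010, Epcam -0.49 to 1.26 and Sox9 -0.27 to 0.046, and between aged and middle-aged livers, Krt7 -0.57 to 0.82, Krt18 -0.15 to 0.26 and Spp1 -0.38 to 0.15. For r with Tff3 it gave -0.13 to 0.34 (Krt7), -0.30 to 0.22 (Krt19) and -0.41 to 0.12 (Sox9). The cause of these changes was not tested. Depth limits Epcam and the Tff3 values of middle-aged and aged livers.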

Other observations

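Among 19 hepatocyte markers, DESeq2 called 0 higher and 2 lower between aged and young livers, where 3.58% of all genes were called, and 0 between middle-aged and young or aged and middle-aged livers, where 6.41% and 1.14% were called. In these comparisons 4 markers each had an unadjusted p under 0.05 in DESeq2. Tdo2, the first enzyme of tryptophan breakdown, had 17612 to 22772 normalised counts in young and 13031 to 16181 in aged livers (log2 difference -0.45, SE 0.10, DESeq2 adjusted p = 0.000514), and stayed called in 20 of 22 alternatives. Arg1, the urea cycle arginase, had 17398 to 18736 in young and 12098 to 15834 in aged livers (log2 difference -0.32, SE 0.10, DESeq2 adjusted p = 0.0312), and stayed called in 10 of 22. Without aged replicate 2, aged replicate 3, middle-aged replicate 2 or any of young replicates 1 to 3 the call of Arg1 was lost.

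Lists of other cell types held no gene called between ages: other bile duct markers, other keratins, trefoil paralogues, intestinal secretory, mesothelial, pancreatic acinar, macrophage, stellate and fibroblast, endothelial and lymphocyte markers. Over all genes tested, 3.58% were called between aged and young livers, 6.41% between middle-aged and young livers and 1.14% between aged and middle-aged livers. At these shares few calls would fall on lists of this size, so their absence does not show that these cell types were stable. Genes without an adjusted p could not be called. Between aged and young livers it was given to 9 of 16 other bile duct markers, 2 of 10 other keratins and 0 of 2 trefoil paralogues. It was given to 1 of 8 intestinal secretory, 1 of 7 pancreatic acinar and 4 of 6 lymphocyte markers, and to all genes of the remaining lists. In both comparisons with middle-aged livers no other keratin, trefoil paralogue, intestinal secretory or pancreatic acinar marker received it. Of the 10 other keratins, Krt5, Krt13, Krt15 and Krt17, of layered and duct-basal epithelia, had no count in any library.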
